A study of Homo sapiens
Mus musculus with 2 samples.

Results

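Ambient barcodes are the cell barcodes of a droplet experiment that carry little RNA, thought to be free RNA of more than 1 kind of cell. Here the name stands for the barcodes with 200 to 600 UMIs of which less than 50% were human, taken in 2 Drop-seq libraries made from a mixture of human and mouse cells. This rule does not require mixed RNA, so some of them may be shallow cells, which was not tested. UMIs (unique molecular identifiers) tag each captured transcript, so that its PCR copies count once. The rule found 3643 of the 6000 deposited barcodes. They were 1629 of 2000 barcodes (81.5%) in the library loaded at 150 cells per µl, called the 150 library, and 2014 of 4000 (50.4%) in that loaded at 300 cells per µl, called the 300 library. The barcodes were chosen by their number of UMIs and their human share, so values of either are a description and were not tested.

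Each library came from an equal mixture of 4 lymphocyte lines, the human T cell lines Jurkat and TALL-104, the mouse T cell line EL4 and the mouse B cell line IVA12, encapsulated in lysis buffer on a Dolomite scRNA-Seq system. The concentration of the loaded cells was the only labelled difference between the libraries. Each concentration had 1 library, so values of the 150 and the 300 library are given side by side and were not tested against each other. Tests of ambient barcodes against cells used the 2 libraries as replicates. Nothing in the labels says that they came from separate cultures, so they may be technical replicates only. The contrast was taken within libraries, and the p-values set it against a variance pooled over all genes. They do not measure a spread between cultures.

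In Drop-seq, a droplet joins a bead with a cell, the cell is lysed, and its mRNA binds to primers that carry the bead's barcode. Most droplets that hold a bead hold no cell, and such a bead captures only the RNA that floats in the cell suspension, called ambient or free RNA. Ambient RNA also enters the droplets that do hold a cell and adds transcripts of other cells to its profile. In a mixture of species part of it can be recognised, since mouse transcripts on a human cell's barcode come from other cells, apart from reads aligned to the wrong species.

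A low barcode can also be a misread copy of a cell's barcode, so the sequences were compared first. The barcodes were 12 bases long. Of the ambient barcodes, 0 in the 150 library and 3 in the 300 library lay within 1 substitution of a barcode with at least 1000 UMIs. Of the other barcodes under 1000 UMIs, 3 of 181 and 7 of 862 did. Of the cells, 2 of 190 and 2 of 1124 lay as near to another cell. How many would lie so near by chance was not computed. The 3 pairs are shown because they are the closest sequences between ambient barcodes and cells. They are written 5′ to 3′ with the differing base in capitals, and positions are counted from 1 at the 5′ end. The letter n stands for an unread base, which Drop-seq tools write as the last base of a barcode when a bead lacks one.
Ambient barcode 1: cgtactattgcC
Cell barcode 1: cgtactattgcN
Ambient barcode 2: Ctgagggctctn
Cell barcode 2: Atgagggctctn
Ambient barcode 3: tcgCtgaactgn
Cell barcode 3: tcgAtgaactgn
With the cell's base first, the substitutions were N12C, A1C and A4C. Ambient barcode 1 held 571 UMIs with 4.90% human, and its cell held 1016 UMIs with 1.28% human. Ambient barcode 2 held 587 UMIs with 0.170% human, beside 9203 UMIs with 0.174% human in its cell. Ambient barcode 3 held 470 UMIs with 0.426% human, beside 6335 UMIs with 0.474% human. All 3 therefore had a human share far below that of most ambient barcodes in the 300 library, and in pairs 2 and 3 the shares of the ambient barcode and of the cell were nearly equal.

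Within 2 substitutions of a cell barcode were 16 ambient barcodes in the 150 library (0.982%) and 83 in the 300 library (4.12%), where there were 190 and 1124 such cells to be near to. An unread last base stood in 4.36% of ambient barcodes in the 150 library and in 4.42% in the 300 library, and in 7.37% and 5.07% of the cells. For the bases T, G and C, the composition of ambient barcodes differed from that of cells in the same direction in both libraries, and for A in opposite directions. T made up 28.5% of ambient barcode bases in the 150 library (exact 95% binomial interval 27.8% to 29.1%) and 28.7% in the 300 library (28.2% to 29.3%). In the cells it made up 24.8% (23.1% to 26.7%) and 25.7% (24.9% to 26.4%). G was lower in ambient barcodes, with 22.0% and 20.7%, than in the cells, with 23.9% and 24.8%. C was 24.4% and 24.1% in ambient barcodes, beside 24.7% and 24.4% in the cells. A was 24.8% and 26.1%, beside 25.9% and 24.8%. The intervals pool all bases of a library as if they were independent, so these differences are a description and were not tested. Of all barcodes, 1 occurred in both tables, and it was not ambient.

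The depth of the ambient barcodes was bounded by the rule. In the 150 library they held 201 to 600 UMIs, with a median of 325 (quartiles 278 and 396) and a median of 293 genes. Their 561247 UMIs were 23.4% of the table. In the 300 library the median was 467 UMIs (417 and 521) and 408 genes, and their 939081 UMIs were 10.8% of the table. The deposited tables ended at 2000 and 4000 barcodes, so few barcodes lay below the range (16 and 8), while 122 and 815 held over 600 and under 1000 UMIs. The barcodes just inside the range held 201 and 211 UMIs, beside 199 and 197 just below it, and 600 UMIs in both libraries, beside 601 just above. The upper limit thus cut through the depths of the 300 library more than through those of the 150 library.

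The human share was held under 50% by the rule, so its values are given as a description. Pooled over ambient barcodes, it was 27.5% in the 150 library and 16.1% in the 300 library. Among barcodes the share had a median of 28.1% (quartiles 24.9% and 30.7%) in the 150 library and 16.3% (14.2% and 18.2%) in the 300 library. Within 10 percentage points of the median lay 91.8% and 94.7% of the ambient barcodes. By depth inside the range, the pooled share went from 28.5% in barcodes of 200 to 299 UMIs to 26.9% in those of 500 to 600 UMIs in the 150 library, and stayed between 15.2% and 16.6% over the same bins in the 300 library.

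**Figure D1:**
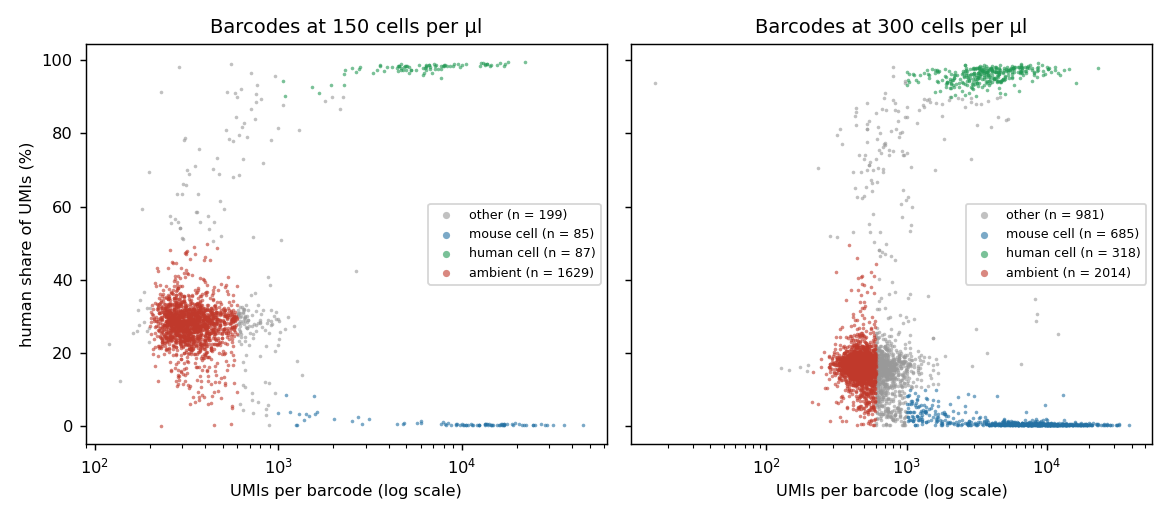
Human share of UMIs (%) against UMIs per barcode on a log scale, 1 point per barcode and 1 panel per library. The ambient barcodes form a band around 28.1% human in the 150 library and 16.3% in the 300 library, between the human and the mouse cells.

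As a description of that band, its central spread, taken from the median absolute deviation, was 1.72 times the binomial value in both libraries, and the full variance, which counts the tails, was 5.98 and 7.78 times it. The tails lay on both sides. At most 10% human were 20 ambient barcodes in the 150 library (1.23%) and 145 in the 300 library (7.20%). Over 40% human were 33 and 9. On the other side of the 50% limit, 43 and 39 barcodes of the same depth were left out as richer in human UMIs, and the nearest values on each side of it were 49.8% and 50.6% in the 150 library and 49.6% and 50.3% in the 300 library.

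The next question was whether a single ambient barcode carried RNA of both mouse cell kinds. The 770 mouse cells, with at least 1000 UMIs of which at least 90% were mouse, split into groups of 439 and 331 cells, called mouse A and mouse B. Genes carried no names here, so neither group was assigned to EL4 or IVA12. Marker genes of each group were chosen in 1 library, with at least 20 CPM (UMIs of a species scaled to a common total) and an 8-fold difference, and read in the other. The groups themselves were formed over both libraries, so the levels of the markers in the cells are no result. Read in the 150 library were 336 markers of mouse A and 314 of mouse B, and in the 300 library 373 and 340.

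Nearly every ambient barcode held markers of both groups. A UMI of each kind was present in 1570 of 1629 ambient barcodes in the 150 library (96.4%) and in 2006 of 2014 in the 300 library (99.6%). To compare them with cells at equal depth, each barcode was thinned at random to 200 mouse UMIs, which left out 450 and 4 shallower ambient barcodes and no mouse cell. Both kinds were then present in 94.2% of 1179 ambient barcodes (exact 95% binomial interval 92.7% to 95.5%) and in 96.9% of 2010 (96.0% to 97.6%). Among mouse A cells the share was 14% of 50 (5.82% to 26.7%) and 40.6% of 389 (35.7% to 45.7%), and among mouse B cells 20.0% of 35 (8.44% to 36.9%) and 40.2% of 296 (34.6% to 46.03%). These intervals cover counting error only. The markers were chosen to differ between these groups of cells. A low share in the cells follows in part from that choice, and the comparison was not tested.

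Mouse B markers made up 10% to 90% of the marker UMIs in 94.8% of ambient barcodes with at least 5 such UMIs in the 150 library and in 98.7% in the 300 library. Cells also lay in that range, with 2% and 11.3% of mouse A cells and 0% and 16.9% of mouse B cells. The variance of the mouse B part among ambient barcodes was 1.35 and 1.69 times the binomial value. Among mouse A cells it was 1.74 and 5.13 times, and among mouse B cells 1.71 and 52.6 times.

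**Figure D2:**
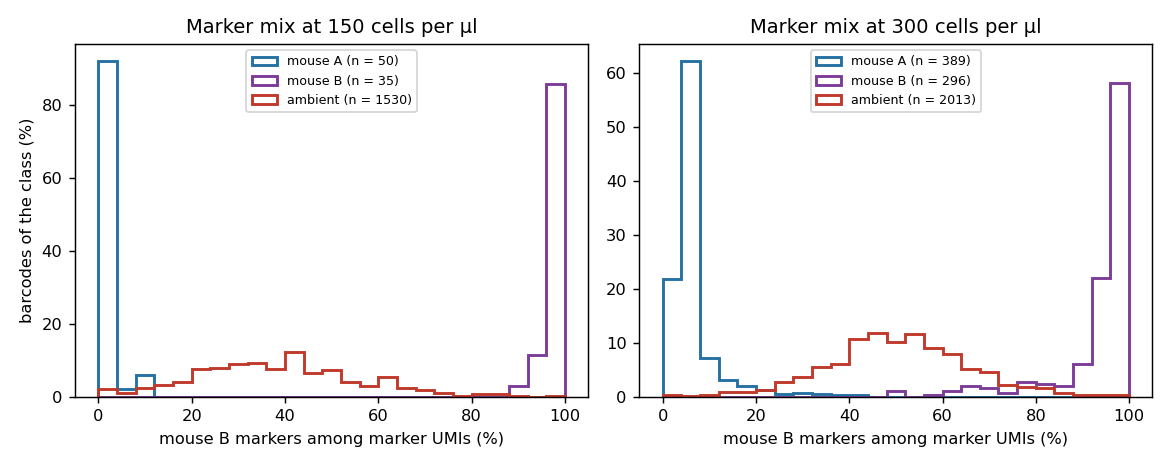
Mouse B markers as a share of marker UMIs (%) per barcode with at least 5 marker UMIs, as a histogram in % of each class, 1 panel per library. Most ambient barcodes lie between the bulk of the mouse A cells near 0% and the bulk of the mouse B cells near 100%. The ambient median was 37.5% in the 150 library and 50% in the 300 library. In the 300 library, 11.3% of mouse A and 16.9% of mouse B cells lay between 10% and 90%.

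As a description, the ambient barcodes at the mouse end of the band are set beside the rest. Of those with at most 10% human UMIs, 11 of 20 in the 150 library (55.0%, exact interval 31.5% to 76.9%) and 18 of 145 in the 300 library (12.4%, 7.53% to 18.9%) were one-sided, with at most 10% or at least 90% mouse B markers. Of those with 10% to 40% human UMIs, 67 of 1483 scored barcodes (4.52%, 3.52% to 5.70%) and 9 of 1859 (0.484%, 0.222% to 0.917%) were. All 67 of those in the 150 library had at most 10% mouse B markers. Ambient barcodes held medians of only 6 mouse A and 4 mouse B marker UMIs there, and 9 and 9 in the 300 library. With so few UMIs a barcode can be one-sided by counting alone, most easily toward mouse A in the 150 library. The variance of the mouse B part was 10.8 and 7.57 times the binomial value among barcodes with at most 10% human UMIs. Among those with 10% to 40% it was 1.21 and 1.23 times that value. The intervals of the one-sided share cover counting error among the barcodes of 1 library, and the human share was part of the rule. The difference was therefore not tested. The human-poor barcodes also differed a little in depth, with medians of 422 and 511 UMIs beside 324 and 464. The 3 ambient barcodes next to a cell barcode were among the 145. Whether the human-poor barcodes included shallow mouse cells was not tested.

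The parts of both mouse groups in ambient mouse RNA were set beside those in the mouse cells, and the difference ran in opposite directions in the libraries. Markers of mouse A took 2.58% of the ambient mouse UMIs in the 150 library (exact interval 2.53% to 2.62%) and those of mouse B 1.57% (1.53% to 1.61%). In all mouse cells of that library they took 2.25% and 1.86%. In the 300 library, the ambient shares were 2.31% (2.28% to 2.34%) and 2.37% (2.33% to 2.401%), beside 2.52% and 2.05% in the cells. Scaled by the level of each marker set in its own group, mouse B made up 35.7% of ambient mouse RNA in the 150 library and 43.4% of that in the cells. In the 300 library it made up 48.7% of ambient mouse RNA and 42.3% of that in the cells. Before this scaling, the 95% counting interval of the mouse B share of ambient marker UMIs had a half-width of 0.735 and 0.512 percentage points. It leaves out the spread among the cells, and no interval of the scaled value was computed. By number, mouse B made up 35 of 85 mouse cells (41.2%, exact interval 30.6% to 52.4%) and 296 of 685 (43.2%, 39.5% to 47.02%). The ambient value lay inside this interval in the 150 library and above it in the 300 library. The interval is of cell numbers and the ambient value is a share of RNA, so this does not test the difference. Each difference rests on 1 library and was not tested.

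Mouse UMIs were also found on human cells, which had at least 1000 UMIs of which at least 90% were human. Mouse B made up 37.8% of these 10594 mouse UMIs in the 150 library and 51.5% of these 49990 in the 300 library. In both libraries this lay nearer to the ambient barcodes than to the mouse cells. Markers of mouse A took 2.43% of them (2.14% to 2.74%) and those of mouse B 1.605% (1.37% to 1.86%) in the 150 library, and 2.178% (2.05% to 2.31%) and 2.46% (2.33% to 2.60%) in the 300 library. These intervals held the ambient values for mouse B in both libraries and for mouse A in the 150 library, and overlapped the ambient interval for mouse A in the 300 library. They held the values of the mouse cells in the 150 library but not in the 300 library.

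**Figure D3:**
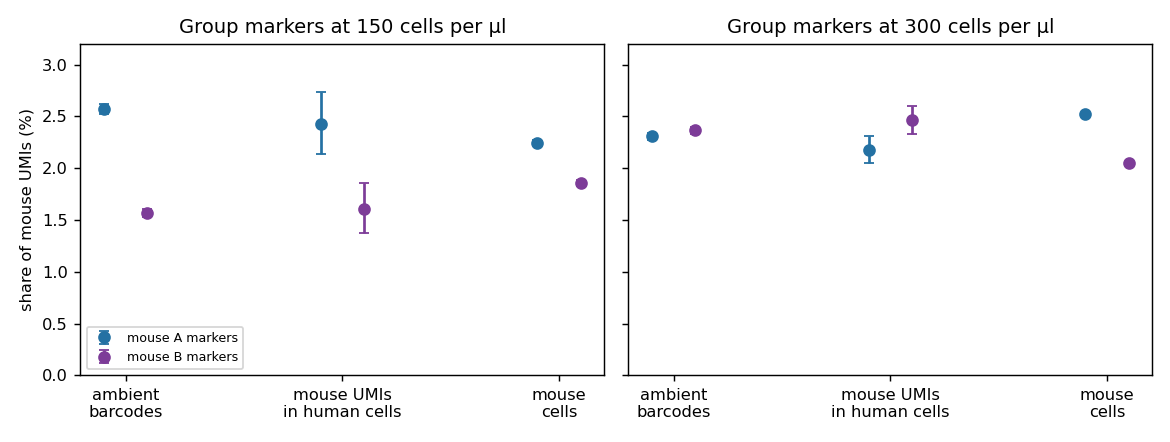
Share of mouse UMIs (%) on mouse A markers and mouse B markers in ambient barcodes, in the mouse UMIs of human cells and in mouse cells, 1 panel per library, with exact 95% binomial intervals as bars. Mouse A markers lead in all 3 classes in the 150 library, whereas in the 300 library mouse B markers lead in ambient barcodes and in human cells and mouse A markers lead in the mouse cells.

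The number of genes was compared at equal depth, where it is bounded by the number of UMIs and can show only large differences. Thinned to 200 mouse UMIs, ambient barcodes held a median of 181 mouse genes in the 150 library (quartiles 177 and 184) and 183 in the 300 library (180 and 185). Mouse cells held 178 (175 and 182) and 181 (177 and 184). Thinned to 60 human UMIs, which left out 128 and 439 ambient barcodes, ambient barcodes held 58 human genes in both libraries, beside 58 and 59 in human cells. The spread of single genes among thinned barcodes was near the binomial value in ambient barcodes and in cells alike. For the 288 and 272 mouse genes with at least 0.1 UMIs per thinned ambient barcode, the variance was at the median 1.04 and 1.03 times the binomial value, and for 280 and 290 human genes with at least 0.03 UMIs it was 1.03 and 1.02 times. In mouse cells of both groups together it was 1.02 and 1.04 times, and in human cells 0.977 and 0.985 times, so at this depth the measure did not tell a mixture of cell kinds from 1 kind.

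The top 100 and top 1000 genes took a smaller share of ambient RNA than of cellular RNA. The ranking was made in the cells of 1 library and read in the other. The top 100 mouse genes took 23.4% of ambient mouse UMIs (exact interval 23.3% to 23.6%) against 26.8% in the mouse cells in the 150 library, and 22.7% (22.6% to 22.8%) against 24.9% in the 300 library. For human genes the gap was wider, with 18.3% (18.1% to 18.5%) against 25.5% in human cells, and 16.9% (16.7% to 17.1%) against 23.2%. The top 1000 genes showed the same order, with 58.0% against 63.2% and 55.7% against 59.9% for mouse, and 51.8% against 61.7% and 49.7% against 58.2% for human. A ranking made in cells favours genes that are high there, so it was also made in the ambient barcodes of the other library, a setting added after the data were seen. The top 100 genes of that ranking took 23.5% of ambient UMIs against 26.4% in cells and 23.03% against 24.96% for mouse, and 18.6% against 24.5% and 17.7% against 22.9% for human. For the top 10 mouse genes ranked in cells the libraries differed in order, with 5.41% in ambient barcodes against 5.15% in cells in the 150 library and 5.06% against 5.57% in the 300 library.

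Summed ambient profiles were then tested gene by gene against the summed profiles of cells of the same species, with the library as a block, so that the contrast was taken within each library. The test was the quasi-likelihood test of edgeR at a Benjamini-Hochberg adjusted p under 0.05, over 8154 mouse and 6296 human genes with enough counts. Most genes sat close to their level in cells. The ambient level was within 2-fold of the cell level for 97.2% of the mouse genes and 89.1% of the human genes tested. Higher in ambient barcodes were 653 mouse genes, or 8.01% of those tested, and lower were 709, or 8.7%. Among human genes 390 were higher, or 6.19%, and 719 were lower, or 11.4%. The direction was the same in both libraries for 1349 of the 1362 mouse genes called and for 1097 of the 1109 human genes, which the fit over both libraries favours. Over all genes tested it was the same for 5729 of 8154 and 4522 of 6296. The differences were small, with a median absolute log2 fold change of 0.66 among called mouse genes and 0.92 among called human genes. Above 2-fold were 132 mouse genes higher and 45 lower in ambient barcodes, and 205 human genes higher and 238 lower.

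These counts depended on the test and the scaling. DESeq2 called 58 mouse genes higher and 130 lower, and 17 human genes higher and 268 lower, and of these 58, 129, 17 and 268 were also called by edgeR. Scaled by total UMIs without a correction for composition, 843 mouse genes were higher and 196 lower, and 929 human genes were higher and 428 lower. The composition scaling shifted the fold changes by 0.15 on the log2 scale for mouse and 0.25 for human genes, so directions are relative to that scaling. The calls also needed the contrast to be taken within libraries, which left 1 residual degree of freedom. Without the library block, edgeR called 3 mouse genes higher and 0 lower, and 2 human genes higher and 0 lower, with 1539 mouse and 1507 human genes at an unadjusted p under 0.05. The fit took its variance from all genes together (infinite prior degrees of freedom), so a small p does not rest on a gene's own spread between the libraries.

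**Figure D4:**
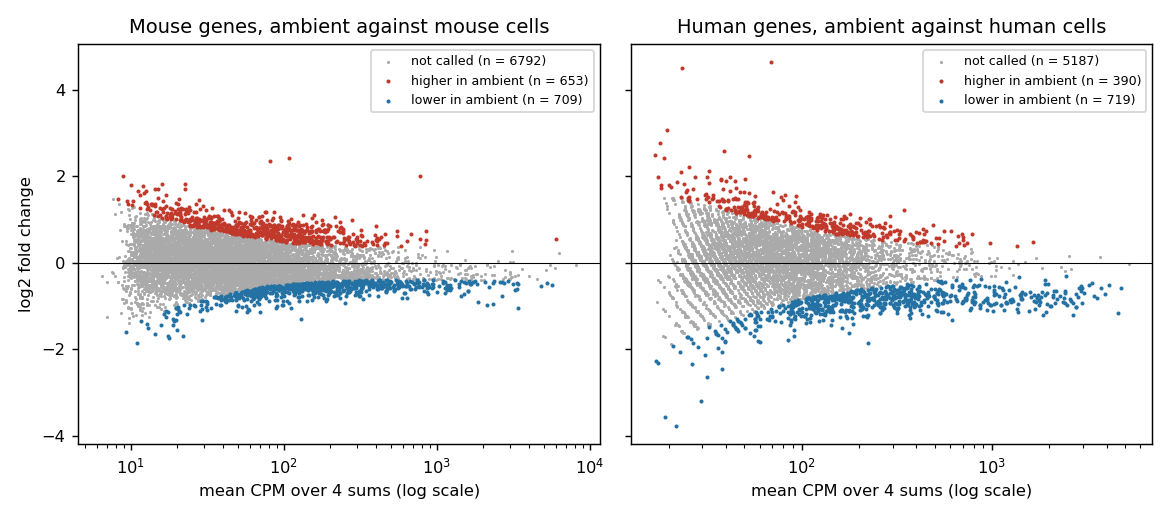
Log2 fold change of ambient barcodes over cells of the same species against mean CPM over the 4 sums on a log scale, 1 point per tested gene, mouse on the left and human on the right. The 653 higher and 709 lower mouse genes and the 390 higher and 719 lower human genes are coloured, and the lower ones extend further to high levels.

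The genes called were more abundant than those tested, and the lower ones most. The median level over the 4 sums was 161 CPM among the lower and 72.7 CPM among the higher mouse genes, beside 46.6 CPM among all mouse genes tested. Among human genes it was 239 CPM, 106 CPM and 72.2 CPM. Above 500 CPM were 16.1% of the lower mouse genes, beside 3.45% of all and 1.68% of the higher ones. For human genes these shares were 26.1%, 4.64% and 4.62%. Power to call a small change grows with the level, so these levels describe the genes called and were not tested.

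The mouse genes called were set beside the difference between the mouse groups. Among those higher in ambient barcodes, 14.1% were at least 2-fold higher in mouse A than in mouse B cells and 10.05% the reverse, beside 15.9% and 13.8% of all mouse genes tested. Among those lower in ambient barcodes the shares were 18.1% and 7.90%. When the groups were weighted in the cell profile as the markers placed them in ambient RNA, a setting added after the data were seen, 819 mouse genes were higher and 862 lower, with all 653 and 709 among them. The weights came from the same ambient barcodes. No such weighting was available for human cells, which were kept as 1 class and may hold few TALL-104 cells. The part of Jurkat and TALL-104 in ambient RNA was not measured. Human calls may thus include differences between the 2 lines, which was not tested.

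The genes with the largest change are given by their Ensembl identifiers, since no identifier was matched to a name here, and their roles are not stated. ENSMUSG00000101609 had 91 UMIs in ambient barcodes (224 CPM) and 31 in mouse cells (29.2 CPM) in the 150 library, and 118 (149.8 CPM) and 160 (29.0 CPM) in the 300 library. Its ambient UMIs came from 65 and 101 barcodes, and the ambient level exceeded the level in cells in both libraries. The log2 fold change was 2.43 ± 0.20 (SE; edgeR adjusted p = 1.63e-31). The SE, here and below, was derived from the fold change and the test's F statistic. With the pooled variance it does not measure a gene's own spread between the libraries.

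ENSMUSG00000097971 had 62 UMIs in ambient barcodes (152 CPM) and 19 in mouse cells (17.9 CPM) in the 150 library, and 101 (128 CPM) and 152 (27.6 CPM) in the 300 library. The log2 fold change was 2.34 ± 0.22 (SE; edgeR adjusted p = 2.96e-23). A single barcode held 42 of its 62 ambient UMIs in the 150 library and another 18 of the 101 in the 300 library. Without these the ambient level was 49.2 CPM and 105 CPM, which was still above the cells in both libraries.

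In the other direction, ENSMUSG00000027018 had 27 UMIs in ambient barcodes (66.4 CPM) and 194 in mouse cells (183 CPM) in the 150 library, and 71 (90.1 CPM) and 1000 (181 CPM) in the 300 library, a log2 fold change of −1.30 ± 0.19 (SE; edgeR adjusted p = 8.4e-09). ENSMUSG00000037960 had 20 (49.2 CPM) and 85 (80.2 CPM), and 36 (45.7 CPM) and 568 (103 CPM), a log2 fold change of −1.14 ± 0.22 (SE; edgeR adjusted p = 6.02e-05). Both genes were lower in the ambient barcodes of each library. In barcodes of 200 to 400 UMIs alone, the call of ENSMUSG00000037960 was lost (edgeR adjusted p = 0.0925), and without the library block those of both genes were (edgeR adjusted p = 0.0663 and 0.120).

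Among human genes, ENSG00000161570 stood furthest above the cells. It had 17 UMIs in ambient barcodes (110 CPM) and 7 in human cells (11.4 CPM) in the 150 library, and 23 (152 CPM) and 1 (0.755 CPM) in the 300 library. Each ambient UMI lay in a barcode of its own, while 6 of the 7 cellular UMIs came from 1 of 87 human cells and the other library had it in 1 of 318. The log2 fold change was 4.63 ± 0.48 (SE; edgeR adjusted p = 3.49e-19), and with 1 UMI in the cells in the 300 library its size is poorly fixed. ENSG00000115904 had 10 UMIs (64.8 CPM) against 3 (4.87 CPM), and 11 (72.6 CPM) against 18 (13.6 CPM), a log2 fold change of 2.57 ± 0.49 (SE; edgeR adjusted p = 5.56e-06). Its call was lost without the library block (edgeR adjusted p = 0.0657).

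Lower in ambient barcodes, ENSG00000103152 had 1 UMI (6.48 CPM) against 36 in human cells (58.4 CPM), and 3 (19.8 CPM) against 89 (67.2 CPM), a log2 fold change of −2.46 ± 0.60 (SE; edgeR adjusted p = 0.000719). ENSG00000167912 had 1 UMI (6.48 CPM) against 39 (63.3 CPM), and 4 (26.4 CPM) against 75 (56.6 CPM), a log2 fold change of −2.07 ± 0.57 (SE; edgeR adjusted p = 0.00345). Both ambient counts were 1 to 4 UMIs, so the direction was shared by the libraries and the size was not well determined. The call of ENSG00000103152 was lost in barcodes of 400 to 600 UMIs (edgeR adjusted p = 0.0913), and that of ENSG00000167912 in those of 200 to 400 and of 400 to 600 UMIs (edgeR adjusted p = 0.139 and 0.0704). Without the library block the calls of both were lost (edgeR adjusted p = 0.0657 and 0.0785).

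Finally, ambient barcodes were compared with the UMIs of the same species that lay on cells of the other species, a comparison added after the data were seen. These UMIs are independent of the rule, since the barcodes that carry them were not ambient. Of 4625 mouse genes tested, edgeR called 0 higher and 1 lower in ambient barcodes than in the mouse UMIs of human cells (0.0216% lower), and 134 had an unadjusted p under 0.05. DESeq2 also called 0 and 1. Of 2449 human genes tested against the human UMIs of mouse cells, edgeR called 0 higher and 12 lower (0.49%), 82 had an unadjusted p under 0.05, and DESeq2 called 0 and 6. These tests rest on few UMIs. Set against cells of their own species, the UMIs on cells of the other species gave as few calls, with 2 of 6828 mouse genes higher and 0 lower, and 11 of 5503 human genes higher and 0 lower (178 and 124 at an unadjusted p under 0.05). The low counts therefore do not show that these UMIs are more like ambient RNA than like cells. Within 2-fold of each other were 85.7% of the mouse and 83.3% of the human genes tested.

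The 1 mouse gene called was ENSMUSG00000058064. It had 6 UMIs in ambient barcodes (14.7 CPM) and 16 in human cells (1510 CPM of their mouse UMIs) in the 150 library, and 14 (17.8 CPM) and 54 (1080 CPM) in the 300 library (log2 fold change −5.94; edgeR adjusted p = 4.65e-38). In the mouse cells its level was 19.8 and 22.1 CPM, near that of the ambient barcodes, so it stood apart only among the mouse UMIs of human cells. Of the 12 human genes, ENSG00000164442 and ENSG00000100836 had the largest log2 fold changes. ENSG00000164442 had 5 ambient UMIs (32.4 CPM) against 3 in mouse cells (658 CPM), and 6 (39.6 CPM) against 25 (796 CPM), a log2 fold change of −4.13 (edgeR adjusted p = 1.11e-06). ENSG00000100836 had 6 (38.9 CPM) against 1 (219 CPM), and 8 (52.8 CPM) against 28 (891 CPM), a log2 fold change of −3.70 (edgeR adjusted p = 1.81e-05). The call of ENSG00000100836 was lost with DESeq2 (adjusted p = 0.112) and with no filter on low counts (edgeR adjusted p = 0.130). In human cells ENSG00000164442 lay at 0 and 6.04 CPM, and ENSG00000100836 at 58.4 and 52.8 CPM.

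**Figure D5:**
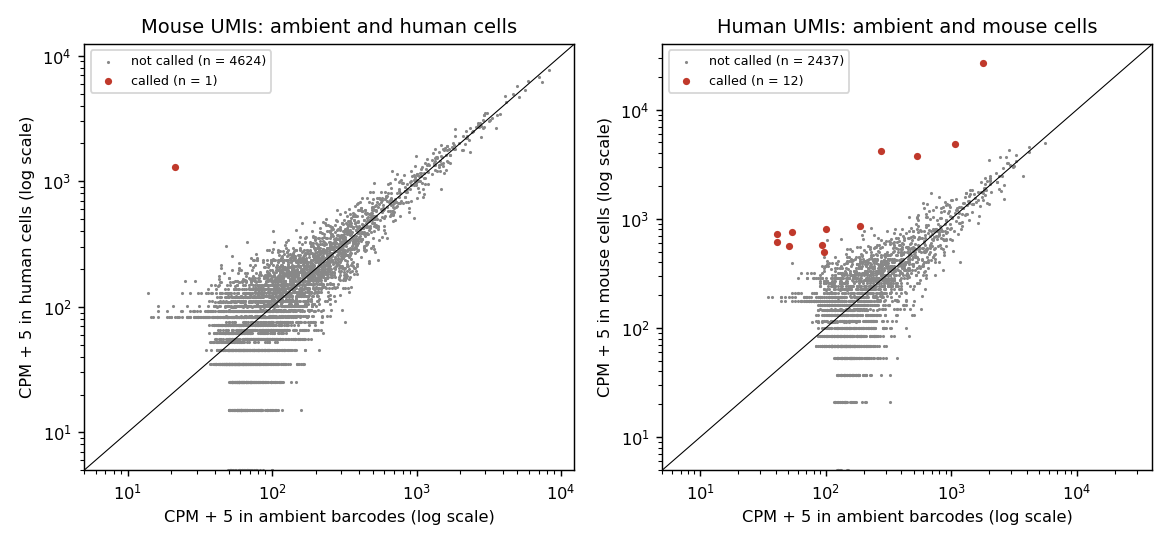
Mean CPM + 5 over both libraries in ambient barcodes (horizontal) and in cells of the other species (vertical), both on log scales, mouse UMIs on the left and human UMIs on the right, 1 point per tested gene, with the line of equal levels. The 1 mouse gene and the 12 human genes called lie above the line.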

How the data were processed

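According to the study's methods, the authors downsampled reads with seqtk, processed them with Drop-seq tools and aligned them with STAR to a joint human and mouse reference. Per the labels and methods, this reference joined hg19 and mm10 and was named after Cell Ranger 1.2.0, and STAR was version 2.4.2a. The deposited tables hold raw UMI counts per gene and barcode. Whether these came from downsampled reads is not given in the sources used here. The tables summed to 2398956 UMIs (150 cells per µl) and 8707135 UMIs (300 cells per µl).

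Members and lists were chosen with earlier results of these data known. Of 29259 identifiers, 0 matched a symbol in the gene table at hand, so planned lists of mitochondrial, immunoglobulin, ribosomal, nuclear, T, B and cytotoxic genes could not be applied, and at most 2 identifiers per direction are named. These had the largest log2 fold change among genes with an adjusted p under 0.05, a shared direction in both libraries, and 50 CPM or more in whichever class was higher. CPM is scaled to the total UMIs of that species. Mouse groups are the sign of the first principal component of scanpy 1.11.5 (2000 variable genes), and k-means gave the same group for 770 of 770 cells. Sums were tested with edgeR 4.0.16 (R 4.3.3; TMM, filterByExpr, glmQLFit, library block, 1 residual degree of freedom), checked on simulated sums. DESeq2 1.42.0, other scalings, filters, UMI ranges and cell sets were alternatives. No doublet caller was run. Intervals are exact Clopper-Pearson at 95% and cover counting error only.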

Additional observations from a re-analysis of the deposited data

Results flagged for a closer look

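The mouse B part of mouse RNA in ambient barcodes deviated from that in the mouse cells in opposite directions in the libraries. Ambient minus cells was −7.69 percentage points at 150 cells per µl and 6.36 percentage points at 300 cells per µl. Each concentration had 1 library, and the difference between the libraries was not tested. The mouse B part of ambient mouse RNA was 35.7% and 48.7%, and that of the mouse cells 43.4% and 42.3%. By number, mouse B made up 41.2% of mouse cells at 150 cells per µl (exact 95% binomial interval 30.6% to 52.4%), which holds the ambient value, and 43.2% at 300 cells per µl (39.5% to 47.02%), which does not. These intervals are of cell numbers and the ambient value is a share of RNA, so they do not test the difference.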

How the results depend on the processing

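The rule gave 3643 ambient barcodes. Calls of genes against cells of the same species moved by more than 1.5 times in these settings, and the cause was not tested. Higher mouse genes (653) were 411 with no filter on low counts, 58 with DESeq2, 3 with no library block and 228 in barcodes of 400 to 600 UMIs. Lower mouse genes (709) were 196 with total UMIs, 130 with DESeq2, 0 with no library block and 174 in barcodes of 400 to 600 UMIs. Higher human genes (390) were 929 with total UMIs, 108 with no filter, 17 with DESeq2, 2 with no library block, 101 in barcodes of 200 to 400 UMIs and 91 in those of 400 to 600 UMIs. Lower human genes (719) were 428 with total UMIs, 268 with DESeq2, 0 with no library block, 386 in barcodes of 200 to 400 UMIs and 333 in those of 400 to 600 UMIs. Where no library block gave 0, 1539 mouse and 1507 human genes of either direction had an unadjusted p under 0.05. Against cells of the other species, 1 human gene was higher with total UMIs, and 3 were lower with no filter and 6 with DESeq2. The mouse B part at 300 cells per µl was 48.1% in barcodes of 200 to 400 UMIs. Of 118 values of named genes under alternatives, 0 changed direction, and of the 96 with a test 11 lost significance. DESeq2 gave no adjusted p for 7 genes, all of them named against cells of the same species. Ambient barcodes and cells were compared within libraries. Between the concentrations, no paired analysis was possible because each had a single library. The shares of the planned gene lists were not run, since no identifier had a name. Leaving out a library leaves no residual degrees of freedom, so calls were not recomputed. The ambient depth of 200 to 600 UMIs limits what can be said of 1 barcode.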
